A study of Mus musculus with 2 samples.

Results

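The proteasome subunits of the neonatal mouse brain were examined here by the ribosome footprints on their messenger RNAs. Members were the genes with at least 1 protein-coding transcript and a symbol that begins with Psma, Psmb, Psmc, Psmd, Psme, Psmf or Psmg followed by a digit. The rule took 50 genes, of 21874 protein-coding genes and 45578 genes in all, and used names alone, not measured values. By their known roles, 14 of the 50 are the standard subunits of the core, 9 belong to the base and 8 to the lid. A further 5 are core subunits of immune cells, thymus or testis, 7 are assembly chaperones and 5 are activators or a regulator of the core. The remaining pair, Psmc3ip and Psme2b, were taken by name only and stayed out of every class.

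The proteasome is the protease that removes proteins marked with ubiquitin. Its core particle is a barrel of stacked rings, with the active sites on the inner beta rings and a gate formed by the outer alpha rings. The regulatory particle sits on the barrel: its base holds the ATPases that unfold the substrate and thread it into the core, and its lid removes the ubiquitin chain. In the assembled complex each of these subunits is present once per alpha ring, beta ring or regulatory particle, so footprints per coding nucleotide are the quantity that can be set side by side between subunits. In neurons the proteasome is known for its part in synapse remodelling and in the turnover of damaged proteins.

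The material was brain from mice at postnatal day 5 with the genotype Smn+/-; SMN2tg/0 on an FVB background, the control genotype of a spinal muscular atrophy strain: every animal had 1 working copy of mouse Smn and carried the human SMN2 transgene. Ribosomes in a nuclease-treated lysate were captured with RiboLace, beads with a puromycin analogue that binds ribosomes in the act of translation, and their protected fragments were sequenced. There were 2 biological replicates of this 1 group and no other condition, so the replicates give the spread and no treatment can be compared. Replicate 1 was the deeper library, with a gene total of 343552 against 120282 for replicate 2. Markers of neurons held 0.589% and 0.602% of gene counts in the respective replicates, markers of astrocytes and radial glia 0.267% and 0.261%, erythroid genes 0.408% and 0.384%, and markers of microglia and immune cells 0.022% and 0.020%.

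All 31 core, base and lid subunits had counts in both libraries. The share of all counts that fell on the 50 genes was 0.545% for replicate 1, with a Wilson 95% interval of 0.521 to 0.570. For replicate 2 it was 0.459%, with an interval of 0.422 to 0.499, and the mean share was 0.502% ± 0.061 (SD, n = 2). The core took 0.246% and 0.214%, the base 0.153% and 0.124%, and the lid 0.095% and 0.072%. A count was seen for 46 of the 50 genes in both libraries and for 47 in at least 1; Psma8, Psmb8 and Psmb9 had none. In a bulk extract, fewer cells that express a gene and fewer footprints per cell cannot be told apart, nor can more messenger RNA and more ribosomes on each messenger RNA, since no RNA library was analysed here.

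The libraries did not differ detectably in any single member. A 2-sided exact binomial test compared the reads of the 2 libraries, not conditions, over the 5436 genes whose mean count reached 10. With Benjamini-Hochberg adjustment at 0.05 it called 4.14% of these genes, 0.956% of the coding genes among them, and 0 of the 35 members tested. A count of 0 among 35 is near the share of the coding genes. At an unadjusted p under 0.05 it took 9.6% of all genes, 5.62% of the coding genes and again 0 of the 35 members, and edgeR's exact test with a preset coefficient of variation of 0.2 also called 0. The 35 tested members were all 31 core, base and lid subunits together with Psmd5, Psme1, Psme4 and Psmf1; the other 15 had too few counts. On the log2(CPM + 1) scale the tested members' ratios of replicate 2 over replicate 1 had a median of -0.07, beside 0.004 for all genes tested, and 14 of the 35 were above 0. The smallest adjusted exact binomial p among them was 0.771.

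Footprint density was the unit of comparison between subunits. It is given as CPM per kilobase of coding sequence, where CPM are gene counts scaled to a common library size with TMM. One more fragment therefore adds 2.71 CPM to a gene in the first library and 8.93 CPM in the second. Each gene was represented by its protein-coding transcript with the highest summed count, and counts of its other transcripts were left out of the density. Intervals for densities are exact 95% Poisson intervals of the count; they and the other intervals cover counting error only, since without molecular identifiers a read amplified by PCR is not an independent molecule. Across the 31 core, base and lid subunits the densities of the libraries had a Spearman rho of 0.908 and a Pearson r of 0.906 on the log2 scale. Within a class Spearman's rho was lower, at 0.736 for the core, 0.833 for the base and 0.635 for the lid. These are correlations across genes, which are not independent replicates, and the libraries share the coding lengths.

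By class median, core members carried more footprints per coding nucleotide than base or lid members in both libraries, and base and lid stood level. The median density of the 14 core subunits was 233 in replicate 1 and 189 in replicate 2, or 211 ± 31.5 (SD, n = 2) CPM per kilobase. The 9 base subunits had medians of 104 and 87.5, or 96.0 ± 11.9, and the 8 lid subunits medians of 104 and 85.5, or 94.5 ± 12.8 (each SD, n = 2). The ratio of the core median to the base median was 2.23 in replicate 1 and 2.15 in replicate 2 (mean 2.19 ± 0.056, SD, n = 2). The ratio of core to lid was 2.25 and 2.21 (mean 2.23 ± 0.032), and that of base to lid 1.01 and 1.02 (mean 1.02 ± 0.011). These ratios are descriptions over subunits and carry no p, because subunits are not replicates of a condition.

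The same order was seen when counts and coding lengths were summed within a class. The core then held 219.9 CPM per kilobase in replicate 1 (interval 205 to 235) and 219.9 in replicate 2 (194 to 249). The base held 98.4 (90.2 to 107) and 92.0 (77.8 to 108), and the lid 93.0 (83.2 to 104) and 81.8 (65.5 to 101). The intervals of the core stood apart from those of the base and the lid in both libraries. For the ratio of core to base, the exact conditional 95% interval was 2.00 to 2.50 in replicate 1 and 1.94 to 2.95 in replicate 2. For core to lid it was 2.08 to 2.69 and 2.10 to 3.47. For base to lid it was 0.919 to 1.22 and 0.858 to 1.48, so any difference between base and lid within these bounds was not detectable. Subunit by subunit, 13 of 14 core subunits lay above the highest base subunit (Psmc1) and above the highest lid subunit (Psmd7) in replicate 1, with Psma3 as the exception. In replicate 2 it was 12 of 14 above Psmc6 of the base and above Psmd7 of the lid, with Psma3 and Psma4 as exceptions.

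**Figure D1:**
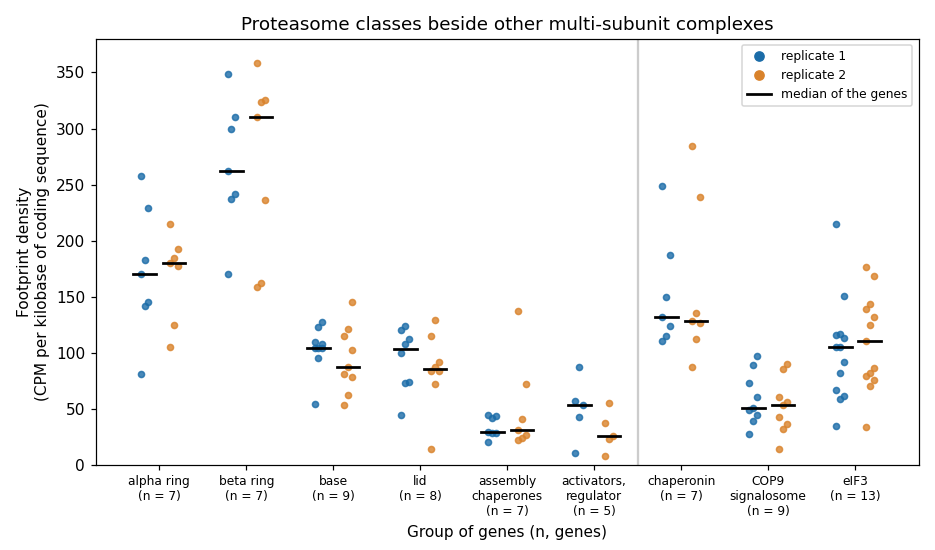
Footprint density in CPM per kilobase of coding sequence (vertical axis) for the genes of each proteasome class and of 3 other complexes (horizontal axis); points are genes, blue for replicate 1 and orange for replicate 2, and black lines are medians. The beta ring has the highest medians, 262 and 311, while base and lid medians lie between 85.5 and 104.

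Class and coding length cannot be told apart for the standard subunits. Among the members, coding sequences span 606 to 834 nucleotides in core subunits, 933 to 1593 in lid subunits and 1140 to 2862 in base subunits. The range of the core does not overlap the others. Set among the protein-coding genes of their own length range, the classes stood closer together. The median core subunit was at percentile 96.0 of 2637 coding genes, the median base subunit at percentile 95.7 of 8538 and the median lid subunit at percentile 94.5 of 7012. The 90th percentile of density was itself 91.0 CPM per kilobase in the length range of the core, against 49.3 in that of the base and 57.6 in that of the lid. The length range of the core also holds 12 members outside the standard core, 4 of them specialised core subunits and 8 no core subunits at all. All 12 had a mean density below that of Psma3, the lowest standard core subunit, at 92.9. The highest of the 12 was Psme1 at 62.3, and the 3 at 0 were the specialised subunits Psma8, Psmb8 and Psmb9.

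Within the core, the beta ring stood above the alpha ring. The 7 beta subunits had median densities of 262 and 311 CPM per kilobase in the respective replicates, and the 7 alpha subunits 171 and 180, a ratio of 1.54 and 1.72 (mean 1.63 ± 0.129, SD, n = 2). With summed counts the ratio was 1.57 in replicate 1 (exact conditional interval 1.36 to 1.81) and 1.63 in replicate 2 (1.26 to 2.12). This order turned when the counts of all isoforms of a gene were summed, at a ratio of 0.726. How a fragment that matches several isoforms was counted is not given, and the alpha genes list 34 transcripts against 19 for the beta genes. Whether the number of listed transcripts lowers the density taken on 1 transcript was not tested.

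The alpha subunits build the gated outer ring and the surface on which the regulatory particle docks. Psma2 had 67 counts in replicate 1 and 14 in replicate 2, and Psma1 67 and 16, the highest counts of replicate 1 in the ring. Psma7 had 47 and 18 counts, and Psma6 50 and 16. Their mean densities ran from 188 ± 7.04 for Psma6 to 217 ± 56.7 CPM per kilobase for Psma2 (each SD, n = 2). Psma5 followed with 38 and 15 counts and a density of 163 ± 30.2, and Psma4 with 42 and 11 counts and 135 ± 14.0 (each SD, n = 2). The order of these 6 was not the same in both libraries: Psma2 led in replicate 1 at 258, and Psma7 in replicate 2 at 215.

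Psma3, whose product has a tail that helps to close the gate, was the lowest alpha subunit in both libraries. Its main coding transcript codes over 768 nucleotides and had 23 counts in replicate 1 and 9 in replicate 2. This gave densities of 81.2 (interval 51.4 to 122) and 105 (47.9 to 199), or 92.9 ± 16.6 CPM per kilobase (SD, n = 2). The value depends on the transcript. Psma3 lists 9 transcripts, and its highest summed count, 28 and 11, belongs to a nonsense-mediated decay isoform, a transcript with an early stop, whose annotated coding sequence is only 108 nucleotides. Taken on that transcript, Psma3 would stand at 703 and 910 CPM per kilobase, above every other core subunit, so the coding transcript was used for densities.

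The beta subunits carry the active sites. Psmb6, the caspase-like subunit, had 82 counts in replicate 1 and 26 in replicate 2. Its mean density was 317 ± 9.82 CPM per kilobase (SD, n = 2). Psmb7, the trypsin-like subunit, had 73 and 29 counts, a density of 274 ± 51.8. Psmb5, the chymotrypsin-like subunit and the main target of proteasome inhibitors, had 77 and 21 counts, a density of 249 ± 18.8 (each SD, n = 2). The intervals of the 3 catalytic subunits overlapped in each library, from 186 to 385 in replicate 1 and from 146 to 474 in replicate 2, so no order among them was detectable.

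The beta subunits without an active site spread more widely. Psmb1 was the highest of all 50 genes in density, with 93 and 29 counts and 353 ± 6.78 CPM per kilobase (SD, n = 2). Psmb4 had 88 and 29 counts and a density of 313 ± 18.2, and Psmb3 had 55 and 11 counts and 200.1 ± 58.2 (each SD, n = 2). Psmb2 was the lowest beta subunit by mean density, with 38 and 11 counts and 166 ± 5.55 (SD, n = 2). The density of Psmb1 was 2.05 times that of Psmb2 in replicate 1 (exact conditional interval 1.39 to 3.08) and 2.21 times in replicate 2 (1.07 to 4.90). From Psmb1 down to Psma3, the core spanned a 4.30-fold range in replicate 1 (interval 2.70 to 7.11) and a 3.42-fold range in replicate 2 (1.58 to 8.22). Both are the extremes of 14 values and were picked as such.

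Promoter sequence was looked at for a motif tied to this gene family. The transcription factors encoded by Nfe2l1 and Nfe2l2 are known to raise proteasome gene transcription through antioxidant response elements. The letters TGACNNNGC were searched on both strands in windows from 250 bases before to 50 bases after the annotated start, taken from RefSeq on GRCm38.p6. Windows were found for 42 of the 50 genes. The motif was in 6 of their 45 windows, or 13.3%, beside 12.4% of all 32851 promoter windows, so its share among the members was near the background. The catalytic subunits Psmb5 and Psmb6 were the core genes with a match, and the ATPase gene Psmc6 the base gene. These stretches are shown on the gene's strand because they fall on subunits with an active site or ATPase activity; capitals mark the motif or its reverse complement.
Psmb5, chr14:54618024-54618052, minus strand: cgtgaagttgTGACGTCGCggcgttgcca
Psmb6, chr11:70525338-70525366, plus strand: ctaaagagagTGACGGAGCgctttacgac
Psmc6, chr14:45329587-45329615, plus strand: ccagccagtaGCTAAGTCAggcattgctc
The matches began 47, 9 and 227 bases before the annotated start of their window, respectively, and Psmc6 carries the reverse complement. For Psmb6 the annotated gene begins at 70525324, upstream of the match, so the 9 bases refer to another start. The remaining 3 matches lay at Psmd9, Psmd12 and Psme4. A match is a description of these letters and not a shown binding site.

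The core subunits of immune cells and of single tissues were near or at the limit of detection. Psmb9 and Psmb8, the immune counterparts of Psmb6 and Psmb5 that interferon is known to induce, had 0 counts in both libraries. A count of 0 allows up to 3 counts, or 0.00087% of gene counts in replicate 1 and 0.0025% in replicate 2. Against that limit, the density of Psmb6 was at least 25.2-fold higher than that of Psmb9 in replicate 1 and at least 7.98-fold higher in replicate 2. For Psmb5 over Psmb8 this lower limit was 26.8-fold and 7.32-fold in the same libraries. Psmb10, the immune counterpart of Psmb7, was the exception with 8 counts in replicate 1 and 6 in replicate 2, and densities of 26.4 (interval 11.4 to 52.0) and 65.2 (23.9 to 142) CPM per kilobase. Psmb7 exceeded Psmb10 by 8.99-fold in replicate 1 (exact conditional interval 4.33 to 21.6) and 4.76-fold in replicate 2 (1.94 to 14.0). Markers of microglia and immune cells had 77 and 24 counts in all; 8 of 8 had counts in replicate 1 and 6 of 8 in replicate 2, where Aif1 and Ptprc were at 0. Their part in the Psmb10 counts was not tested.

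Psmb11, the counterpart of Psmb5 in the thymic cortex, had 0 counts in replicate 1 and 2 in replicate 2. Psma8, the counterpart of Psma7 in male germ cells, had 0 in both. Psma7 was therefore at least 15.8-fold higher than Psma8 in replicate 1 and at least 6.05-fold higher in replicate 2.

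**Figure D2:**
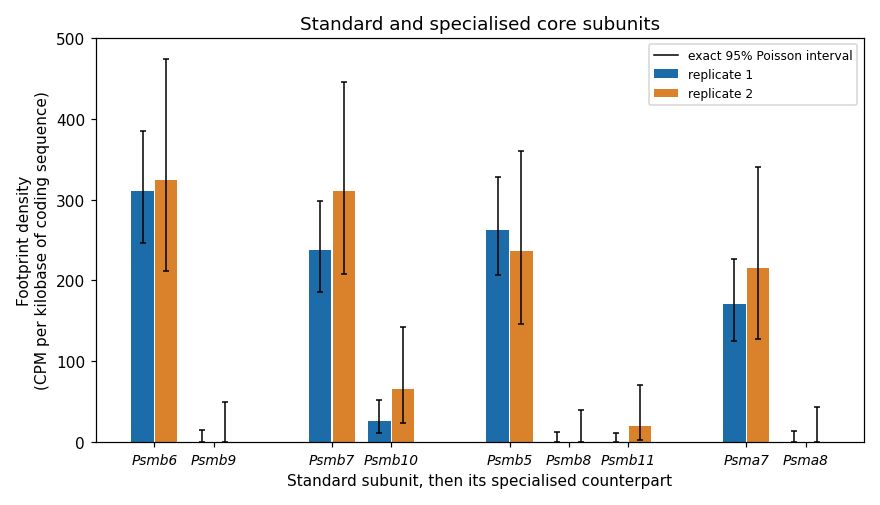
Footprint density in CPM per kilobase of coding sequence (vertical axis, from 0) of 4 standard core subunits and their specialised counterparts (horizontal axis), in blue for replicate 1 and orange for replicate 2, with exact 95% Poisson intervals. Psmb10 is the one counterpart with counts in both libraries, 8 and 6.

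The base ATPases had similar densities. They form a ring of 6 different subunits that grips and unfolds the substrate. Psmc1 had 62 counts in replicate 1 and 17 in replicate 2, Psmc2 55 and 14, and Psmc3 51 and 12. Psmc4 had 50 and 11 counts, Psmc5 47 and 14, and Psmc6 53 and 19. In replicate 1 their densities lay between 104 for Psmc3 and 127 CPM per kilobase for Psmc1, a 1.22-fold range with a coefficient of variation of 9.30%. In replicate 2, with fewer counts, they lay between 78.1 for Psmc4 and 145 for Psmc6, a 1.86-fold range with a coefficient of variation of 25.1%. The intervals of the 6 overlapped in each library, so no order among the ATPases was detectable. For comparison, the coefficient of variation over the 14 core subunits was 34.0% and 36.9%, and over the alpha ring alone 34.0% and 23.3%.

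The scaffold subunits of the base stood apart from each other. Psmd2, a large subunit that docks ubiquitin receptors, had 110 counts in replicate 1 and 37 in replicate 2, the highest counts of all members. Its coding sequence is long, at 2727 nucleotides, and its density of 109 and 121 CPM per kilobase (mean 115 ± 8.38, SD, n = 2) was within the range of the ATPases. Psmd1, the other large scaffold subunit, codes over 2862 nucleotides and drew 57 and 17 counts. Its density of 54.0 and 53.0 (mean 53.5 ± 0.658, SD, n = 2) was the lowest of the base in both libraries. The ratio of Psmd2 to Psmd1 was 2.03 in replicate 1 (exact conditional interval 1.46 to 2.84) and 2.28 in replicate 2 (1.25 to 4.33). This pair was set side by side after its values were seen. Psmd4, a ubiquitin receptor at the border of base and lid, had 40 and 8 counts and a density of 78.9 ± 22.9 (SD, n = 2).

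The lid subunits other than Psmd11 had overlapping intervals in each library. Psmd14, the deubiquitinase that cuts the ubiquitin chain from the substrate, had 37 counts in replicate 1 and 12 in replicate 2. Its mean density was 111 ± 5.22 CPM per kilobase (SD, n = 2). Psmd7, its partner without catalytic activity, had 44 and 14 counts and was the highest of the lid at 126 ± 4.23 (SD, n = 2). The other lid subunits share a domain that builds the horseshoe-shaped scaffold. Psmd3 had 66 and 15 counts, Psmd8 47 and 10, and Psmd6 43 and 12, with mean densities of 98.2 ± 19.9, 102 ± 25.3 and 95.6 ± 5.66 (each SD, n = 2). Psmd12 had 37 and 11 counts and Psmd13 31 and 11, with lower mean densities of 72.4 ± 1.05 and 80.6 ± 8.89 (each SD, n = 2).

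On the transcript chosen for each gene, Psmd11 was the lowest of the core, base and lid subunits in both libraries. It had 21 counts in replicate 1 and 2 in replicate 2, which gave densities of 44.8 (interval 27.8 to 68.6) and 14.1 (1.70 to 50.8) CPM per kilobase. The density of Psmd7 was 2.75 times that of Psmd11 in replicate 1 (exact conditional interval 1.60 to 4.87) and 9.20 times in replicate 2 (2.11 to 83.4); these are the extremes of the lid and were picked as such. The log2 ratio of Psmd11 between the libraries was -1.62, the lowest of the tested members, with an unadjusted exact binomial p of 0.136. Psmd11 lists 15 transcripts. A second one of the same coding length, 1269 nucleotides, had 12 and 2 counts in place of 21 and 2, so its level in replicate 1 depends on the transcript. Others had counts too, among them a coding transcript of 342 nucleotides with 10 and 0 and a retained-intron transcript with 9 and 3. The density above leaves these out, so it does not show that the gene as a whole was lowest.

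**Figure D3:**
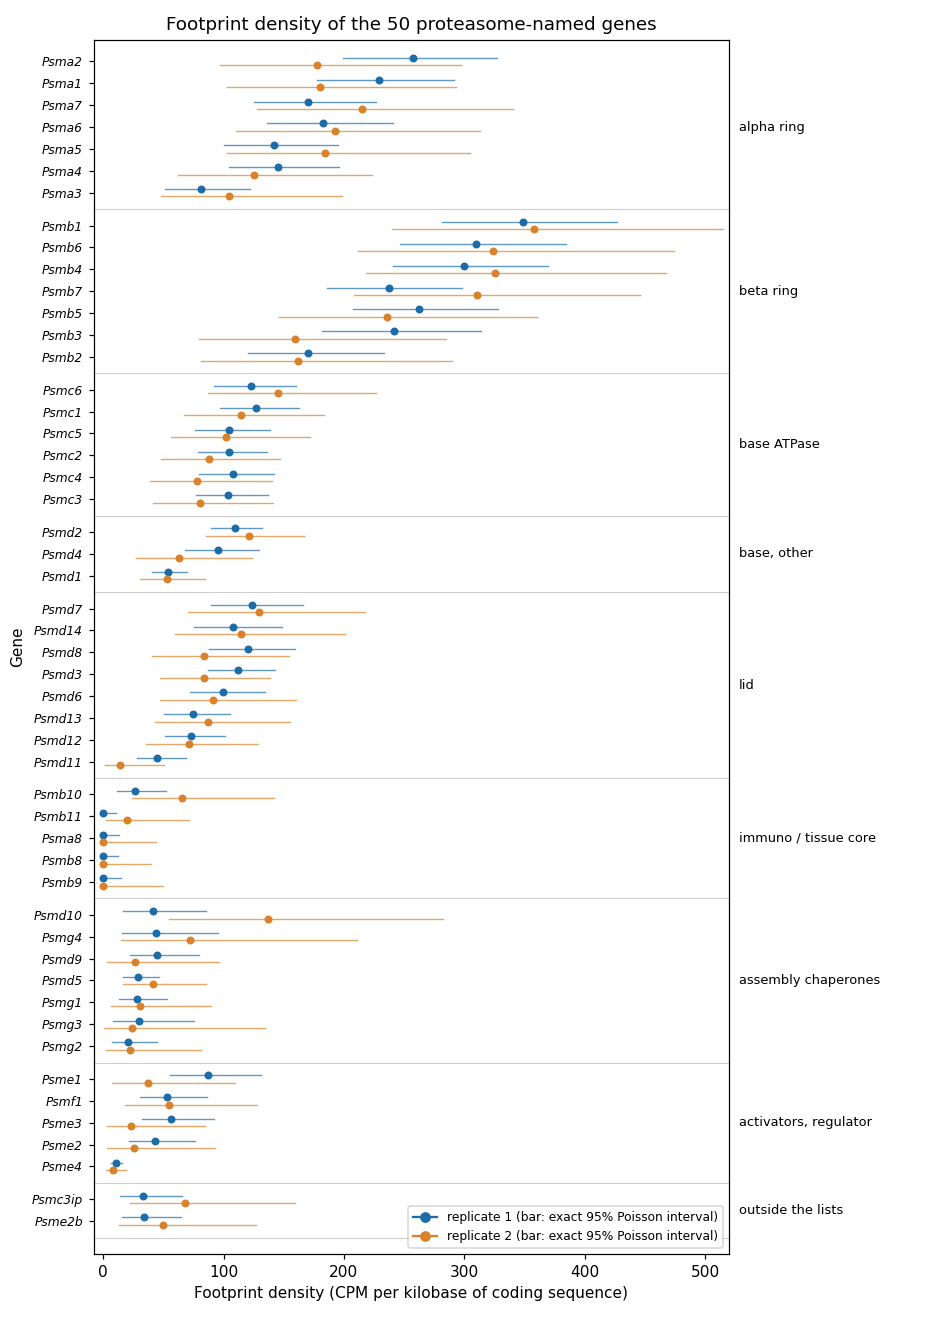
Footprint density in CPM per kilobase of coding sequence (horizontal axis) of the 50 genes by class (vertical axis), blue for replicate 1 and orange for replicate 2, with exact 95% Poisson intervals as bars. Psmb1 is highest, at 349 and 358, and the ATPases lie close together. On the chosen transcripts, Psma3, Psmd1 and Psmd11 are the lowest of the alpha ring, the base and the lid.

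Assembly chaperones, which guide subunits together and leave the finished particle, had a lower median of footprints per coding nucleotide than core, base and lid. Their 7 genes had median densities of 29.4 and 30.8 CPM per kilobase, or 30.1 ± 1.00 (SD, n = 2). The core median was 7.94 times this value in replicate 1 and 6.13 times in replicate 2, and the lid median 3.52 and 2.78 times. With summed counts the ratio of lid to chaperones was 2.94 (exact conditional interval 2.22 to 3.94) and 1.85 (1.17 to 3.01). Among the chaperones of the core, Psmg1 had 9 counts in replicate 1 and 3 in replicate 2, Psmg2 6 and 2, Psmg3 4 and 1, and Psmg4 6 and 3. Among those of the base, Psmd5 had 16 and 7, Psmd9 11 and 2, and Psmd10 7 and 7. With so few counts their order was not detectable. Psmd10, which encodes gankyrin, had the widest spread between the libraries, at 41.6 (interval 16.7 to 85.7) and 137 (55.1 to 282). In replicate 1 Psmd10 was below Psmd11, the lowest lid subunit, at 44.8. In replicate 2 it was above Psmd7, the highest lid subunit, at 129.

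Activators dock on the ends of the core in place of the regulatory particle. Psme1 and Psme2 encode the interferon-inducible ring PA28, and had 23 and 11 counts in replicate 1 against 3 and 2 in replicate 2. Psme3, the nuclear member of the same family, had 16 and 2 counts. Psmf1, a regulator that binds the core, had 16 and 5. The mean densities of these 4 genes ran from 34.2 ± 12.1 for Psme2 to 62.3 ± 35.1 for Psme1 (each SD, n = 2). The value of Psme1 depends on the transcript. Its chosen transcript has an incomplete coding sequence of 715 nucleotides and tied in summed count with another, which had 19 and 7 counts and densities of 75.6 and 91.8 CPM per kilobase. Another coding transcript, of 750 nucleotides, had 20 and 1 counts and stood at 72.3 and 11.9. Psme4, a large nuclear activator that codes over 5532 nucleotides, had 21 and 5 counts and the lowest density of the members with counts in both libraries, at 10.3 (interval 6.37 to 15.7) and 8.07 (2.62 to 18.8) CPM per kilobase. With summed counts, the core exceeded these 5 genes by 7.95-fold in replicate 1 (exact conditional interval 6.37 to 10.03) and by 12.4-fold in replicate 2 (7.56 to 21.5), where the long coding sequence of Psme4 carries most of the summed length. The core median was 4.39 and 7.35 times the median of the 5 genes in the respective libraries. With isoforms summed, this ratio of medians was 2.03 and 2.63.

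The genes taken by name only were low. Psmc3ip, which encodes a meiotic recombination factor that binds the product of Psmc3 and is no proteasome subunit, had 8 counts in replicate 1 and 5 in replicate 2. Psme2b, a copy of Psme2, had 9 and 4 counts. Fragments that match both copies may have been counted for either or for both, so the values of Psme2 and Psme2b are uncertain.

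**Figure D4:**
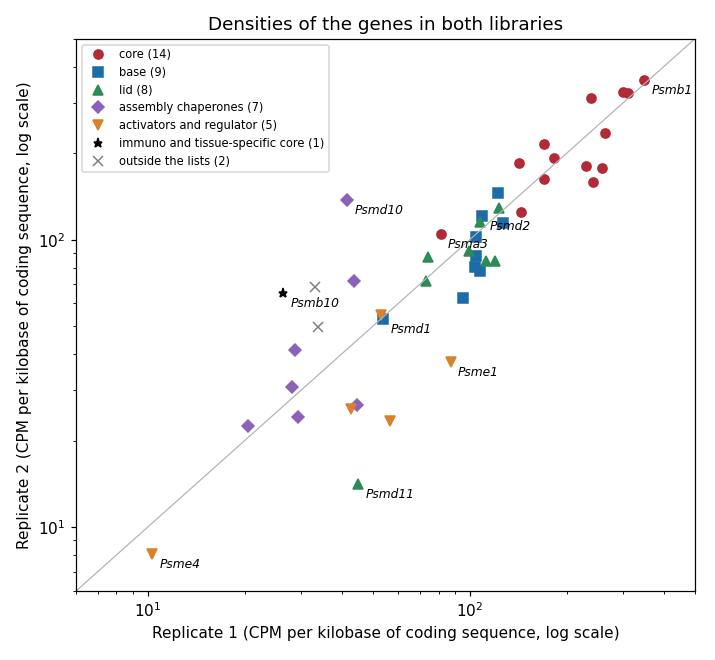
Footprint density in replicate 1 (horizontal axis) against replicate 2 (vertical axis), both in CPM per kilobase of coding sequence on log scales, for the 46 genes with counts in both libraries; the grey line marks equal values and symbols mark the classes. Core subunits fill the upper right, and Psmd10 and Psmd11, with 7 and 2 counts in replicate 2, lie farthest from the line among the named genes.

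Other complexes gave a scale for these values. The chaperonin, which folds actin and tubulin and holds each of its subunits once per ring, had a median density of 130.0 ± 2.31 CPM per kilobase over 7 genes (SD, n = 2). The translation initiation factor eIF3 had 108 ± 4.12 over 13 genes, and the COP9 signalosome 52.2 ± 1.60 over 9 genes (each SD, n = 2). The last pair share the domain architecture of the lid. By summed counts the lid exceeded the COP9 signalosome by 1.60-fold in replicate 1 (exact conditional interval 1.34 to 1.92) and by 1.67-fold in replicate 2 (1.17 to 2.40). Between the lid and eIF3 the ratio was 1.01 (0.882 to 1.15) and 0.783 (0.606 to 1.01), so no difference was detectable. The core exceeded the chaperonin by 1.44-fold (1.30 to 1.60) and 1.38-fold (1.15 to 1.67). These ratios depend on how isoforms are counted. By medians, the lid to COP9 ratio was 2.03 and 1.60, and 1.23 and 1.09 with isoforms summed. The core to chaperonin ratio was 1.77 and 1.47 by medians and became 0.935 and 1.26, which turned the order in replicate 1. The lid to eIF3 ratio of 0.988 and 0.773 by medians became 2.19 and 1.48.

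Genes of the wider pathway were taken from a list of ubiquitin and proteasome factors. Of 18 such genes, 15 passed the count filter and 0 were called different between the libraries by the exact binomial test with Benjamini-Hochberg adjustment, beside 4.14% of all genes tested, so a count of 0 among 15 is near the background. The polyubiquitin gene Ubb was above every proteasome subunit. It had 846 counts in replicate 1 and 259 in replicate 2, with 2508 ± 15.5 CPM per kilobase (SD, n = 2). Fragments from its repeated ubiquitin units can match several places, so this value is uncertain. Uba1, the enzyme that activates ubiquitin, stood at 218 ± 10.8, and Vcp, the ATPase that extracts ubiquitinated proteins, at 227 ± 12.6 (each SD, n = 2), both close to the core median. The 4 ubiquitin shuttle genes reported spread widely: Ubqln2 stood at 289 ± 26.5, Rad23b at 200.4 ± 59.8, Ubqln1 at 120.2 ± 27.2 and Ubqln4 at 35.8 ± 5.74 (each SD, n = 2).

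Proteasome genes that the name rule missed were mixed. Pomp, the maturation factor of the core, had 32 counts in replicate 1 and 9 in replicate 2 and a density of 196 ± 10.5 CPM per kilobase (SD, n = 2), above each of the 7 assembly chaperones. Shfm1, the smallest lid subunit, codes over only 213 nucleotides and had 24 and 13 counts, with a density of 425 ± 169. The name rule kept Shfm1 out of the lid class, so the ratios of core to lid do not include it. Its density was 305 in replicate 1 and 545 in replicate 2, beside 349 and 358 for Psmb1, the highest core subunit. Adrm1, a ubiquitin receptor of the base, had 19 and 7 counts and 46.6 ± 6.37, below all 9 base subunits among the members. Usp14, a deubiquitinase that binds the base, stood at 102 ± 25.7, and Uchl5, its counterpart on Adrm1, at 23.1 ± 5.58 (each SD, n = 2). Nfe2l1 had 36 and 8 counts and Nfe2l2 6 and 2.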

How the data were processed

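Ribosome-protected fragments of 2 replicates of 1 group were analysed. The authors deposited 1 table of whole-number counts per transcript, not normalised, with transcript and coding lengths in nucleotides, per the file headers. Trimmomatic 0.36, Bowtie2 2.2.6, SAMtools and the build GRCm38.p4 are named in the submitters' processing notes; the counting tool, annotation release and strand setting are not given in the sources used here. How a fragment that matches several transcripts was counted is not known here, so column sums may not equal reads. Transcripts of the same coding length could differ, such as a pair of Psmd11 transcripts with 21 and 12 counts in replicate 1. Each column was assigned to a replicate through the number that ends its name; the part "early" of the names is not in the labels and was not used. Beyond the label of biological replicates, nothing states separate animals, so the spread may be partly technical.

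A gene's count was that of its transcript with the highest summed count, the longer in a tie. For densities this choice was made among protein-coding transcripts, which changed Psma3, Psmd5, Psmg3, Psmb8 and Psmb9. CPM used effective library sizes from edgeR 4.0.16 (TMM factors 1.07 and 0.931, R 4.3.3), computed on genes whose mean count reached 10. Exact binomial tests with Benjamini-Hochberg adjustment covered all such genes. On simulated counts with counting error alone, they recovered 47.5% of 200 genes changed 3-fold, with 4 false calls among 99. Many differences of that size between the libraries would therefore be missed. Intervals came from scipy 1.17.1. A floor of 3 counts was used for zeros. Every member is named with its counts; full statistics go to the extremes of each class. Members and lists were chosen with earlier results of these data known. Alternatives covered the transcript, the length, the scaling, the count filter and single subunits. All 50 symbols matched the name table. In the lists of other genes, Cct6a has no protein-coding transcript in the table and was left out of densities, and Paaf1 was not used here. A pair of genes of the pathway list is not reported here.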

Additional observations from a re-analysis of the deposited data

How the results depend on the processing

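No paired analysis was possible because a single group leaves nothing to pair. The count of 0 members differing between the libraries was also found under each of the 6 alternatives run; it needs both libraries, so none was left out. Leaving out 1 replicate gave a core to base ratio of 2.15 to 2.23, a core to lid ratio of 2.21 to 2.25, a base to lid ratio of 1.01 to 1.02 and a share of 0.459% to 0.545%. Core to base stayed above 1 in all 11 alternatives, from 1.84 to 2.31, and core to lid from 1.94 to 2.53.

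In the order core to base, core to lid and base to lid, the ratios of 2.19, 2.23 and 1.02 became 2.12, 1.98 and 0.926 with isoforms summed, 1.84, 2.27 and 1.24 on full transcript length, and 2.31, 2.53 and 1.09 with counts summed over summed coding length. With 45 nucleotides taken off the coding length, core to base was 2.25 and core to lid 2.27. Without Psmd4, core to base was 2.09 and base to lid 1.07. Alternatives chosen after the data were seen were the following: taking Psma3 on its nonsense-mediated decay isoform gave 2.31 and 2.35 for core to base and core to lid; leaving Psma3 out gave 2.27 for core to lid; leaving out Psmb5, Psmb6 and Psmb7, whose names pseudogenes also carry, gave 1.91 and 1.94; and leaving Psmd11 out gave 2.17 for core to lid and 0.990 for base to lid. The share of 0.502% became 0.574% with isoforms summed and 0.649% of protein-coding counts. The other ratios between classes and complexes, and all their alternatives, were added after the data were seen. With isoforms summed, beta ring to alpha ring was 0.726, lid to COP9 signalosome 1.16 in place of 1.82, core to chaperonin 1.10 in place of 1.62, lid to eIF3 1.84 in place of 0.880, and core to activators 2.33 in place of 5.87; core to activators was 10.7 on full transcript length and 10.1 with counts summed over summed coding length. Psmd2 to Psmd1 moved by less than the spread between replicates in all 7 alternatives run, from 2.03 to 2.28. Where the construction of the alternative does not show it, the cause was not tested. Low counts limit the chaperones, activators and specialised subunits most, and replicate 2 more than replicate 1.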

Other observations

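Processed pseudogenes with a member's name also had counts: Psmb5-ps had 15 in replicate 1 and 3 in replicate 2, Psmb6-ps2 15 and 5, Psmb7-ps2 6 and 1, and Psmb6-ps 4 and 1. Each was below its parent gene, which had 77 and 21 counts for Psmb5, 82 and 26 for Psmb6 and 73 and 29 for Psmb7. Whether fragments that match both were counted for both was not tested, so these values do not show translation of a pseudogene.

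The letters CCAAT, searched on both strands, were in 15 of the 45 promoter windows of the members, or 33.3%, beside 37.4% of all promoter windows. In the core they were in 6 of 12 windows, those of Psma1, Psma2, Psma3, Psma6, Psma7 and Psmb3, in the base in 3 of 9, those of Psmc1, Psmc2 and Psmd4, and in the lid in 1 of 6, that of Psmd14.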
